A study of Mus musculus with 16 samples.

Results

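The 7 organoid lines grown from primary pancreatic tumors are described here, out of 16 lines in the series. They were chosen by their stage label alone, tumor, and no measured value entered that choice. Organoids are epithelial cells grown as hollow or solid bodies inside a gel. The labels give KPC, a mouse model of pancreatic ductal adenocarcinoma, as the source, in strain C57BL6/J. In such mice the tumors arise from mutant alleles that Cre recombinase switches on in the pancreas, and the labels do not list the alleles of a line or the ages of the mice. The lines were T3 (mouse 1), T6 (mouse 2), T19 (mouse 3), T23 (mouse 4), T34 (mouse 5), T69a (mouse 6) and T69b (mouse 6), tumor replicates 1 to 7 in that order. The lines therefore stand for 6 mice, and a spread over lines is in part a spread between 2 cultures of mouse 6. The other 9 lines of the series, grown from metastases of the same mice in peritoneum, diaphragm, liver, lung and ovary, serve only for comparison and were cultured in the same way. All lines grew in Matrigel in one medium that held EGF, FGF-10, gastrin, Noggin, R-spondin-conditioned medium, B27, nicotinamide, N-acetylcysteine and A83-01, an inhibitor of TGF-beta receptors. Each line is represented by a single library.

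Pancreatic ducts are tubes of epithelial cells that carry digestive enzymes to the gut and add a bicarbonate-rich fluid. Duct cells are held by transcription factors of foregut origin such as Onecut1, Foxa2 and Sox9, and they express keratins, ion channels, carbonic anhydrase and water channels. Tumors of ductal type often keep this programme in part and add mucins, gastric genes, secreted defense proteins and chemokines that draw neutrophils. Trp53, when intact, holds damaged cells back through targets such as Cdkn1a, Mdm2 and Ccng1.

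Total expected counts ran from 25737000 in T6 through a median of 44181000 to 49965000 in T3, and the 6 lines other than T6 had at least 43411000. In T6, 29.9% of counts fell on 3 genes that collect ribosomal RNA reads, against at most 0.588% in the other 6 lines, and 50.5% fell on protein-coding genes, against 74.5% to 81.1%. Levels of one gene across lines are given as CPM, counts scaled to a common library size, and levels of different genes are compared only as coding TPM, which is abundance per length rescaled to one total over protein-coding genes. A gene is called expressed at 1 CPM or more. By that measure 12045 to 12423 genes were expressed per line, and T6 lay inside that range. The labels name no repeat culture of a line, so the spread within a line is unknown.

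The lines had the markers of duct epithelium and almost none of other pancreatic cells. In such bulk cultures, fewer cells of a type and less RNA per cell cannot be told apart. Of 10 duct markers, 9 were expressed in every line, and the exception was Onecut1 at 0.98 CPM in T69a. None of 13 acinar markers was expressed in every line, and Cela1, an elastase gene, was the one that reached 1 CPM anywhere. Endocrine markers summed to at most 0.135 CPM per line, fibroblast markers to at most 0.397 CPM, endothelial markers to at most 0.667 CPM and erythroid markers to at most 0.098 CPM. Of 9 immune markers only Cd68 was expressed, at 1.04 to 4.35 CPM, and Ptprc, carried by all leukocytes, was at most 0.069 CPM. The 4 mesothelial markers summed to between 0.615 and 5.16 CPM. Hepatocyte genes were split, since Ttr and Apob were expressed in every line while Alb reached at most 1.31 CPM. The intestinal regulator Cdx2 was expressed in every line, at 8.26 CPM in T34, a median of 27.5 CPM and 53.4 CPM in T69a, while Cdx1 had no count in any line.

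The most abundant messages served protein synthesis. Eef1a1, which brings aminoacyl-tRNA to the ribosome, led at 12797 ± 559 coding TPM (SD, n = 7), and ran from 12038 to 13586. Rplp1, a protein of the ribosomal stalk, followed at 6271 ± 1384 coding TPM, and S100a6, a small calcium-binding protein common in epithelial tumors, at 6017 ± 1301 coding TPM. By this measure Rplp1, S100a6 and Rps2 (5958 ± 216 coding TPM) lay within the spread of each other. Ribosomal protein genes filled 13 of the first 20 places and 66 of the first 100. The others in the first 20 were Eef1a1, S100a6, the prolyl isomerase Ppia (5559 ± 864), beta-actin Actb (5228 ± 765), ferritin light chain Ftl1 (4793 ± 383), the chaperone Hspa8 (4063 ± 399) and Sprr2a2. Sprr2a2 has near-identical neighbours in the cluster of small proline-rich proteins, so its 3394 ± 1457 coding TPM are uncertain.

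This top layer was shared by the lines. In every line 14 of these 20 genes were among its own first 20. The 20 genes together took 9.38% to 10.9% of coding TPM, and 104 ribosomal protein genes took 19.9% to 21.7%. The most abundant keratin was Krt18 at 2651 ± 468 coding TPM, and its partner keratin Krt8 had 1924 ± 310. Clu, the secreted chaperone clusterin, had 2425 ± 1713 coding TPM, a spread that came from T34, with 6114 against 1288 in the lowest line. Mitochondrially encoded genes were ranked apart and took 2.01% of coding TPM in T69b and 3.57% in T6, the ends of their range. Among them mt-Co1, a subunit of cytochrome c oxidase, had 10472 ± 1288 coding TPM and mt-Nd1, of complex I, 3861 ± 651.

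Across the genome, 11167 genes were expressed in every tumor line, which was 82.5% of the 13533 genes expressed in at least 1 of them. Of 21903 protein-coding genes listed, 10522 were expressed in every line, or 48.0%, and the lists below are read against that share. For each list the same genes were also compared between metastasis and tumor lines, in a single edgeR quasi-likelihood fit over 15573 genes with a term for each mouse. In that fit 9.92% of genes were lower in metastasis lines, 6.59% were higher and 16.5% changed in either direction, with a median log2 fold change of -0.02 over all genes. These shares rest on few mice. The lower genes numbered 1545, and 980, 918, 834 or 720 without T3, T6, T19 or T34, and 985, 826, 1018 or 910 without M1, M6, M10 or M3P. The higher genes numbered 1026, and 541, 509, 456, 652 or 413 without T3, T6, T19, T23 or T34, 526, 442, 651 or 492 without M1, M6, M10 or M3P, and 1778 without T69a. Adjusted p-values in the text come from this edgeR fit with Benjamini-Hochberg adjustment over all genes tested, and fold changes are metastasis minus tumor. Ranges of tumor and metastasis lines are compared for named genes only. The share of all genes without overlap is not given, so a lack of overlap is not read as unusual.

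Of 25 transcription factors of duct and foregut identity, 17 were expressed in every tumor line and 2, Nkx6-1 and Foxp2, in none. Per length the most abundant was Ehf, an ETS factor of mucosal epithelia, at 236 coding TPM, followed by the hepatocyte and gut factor Hnf4a (156), the epithelial ETS factor Elf3 (112), the foregut homeobox factor Hhex (83.9), Foxa2 (55.3), a pioneer factor of endoderm, and Klf5 (53.6). Ehf ran from 165 CPM in T69a through a median of 426 to 508 CPM in T19, so T69a lay below the other lines. Hhex was at 8.61 CPM in T69a and between 56.6 and 93.4 CPM in the other 6. Sox9, a regulator of duct progenitors, differed little, from 11.4 CPM to a median of 16.4 and 18.2 CPM. Pdx1, which specifies the pancreas, stood at 19.8 to 25.9 CPM in 6 lines and 41.0 CPM in T69a.

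Of the 22 factors tested against metastasis lines, 6 were lower there and 4 higher, and the median log2 fold change was -0.34. Leaving out single lines gave 4 to 8 lower and 1 to 7 higher, with 1 higher without T3, T6, T19, T34, M1, M6 or M3P and 7 without T69a. Onecut1, a duct and liver factor, was 0.98, 9.04, 11.7, 16.8, 18.1, 19.8 and 24.4 CPM in T69a, T23, T69b, T34, T6, T3 and T19. All 9 metastasis lines were at or under 0.0782 CPM, below every tumor line (log2 fold change -8.41, SE 0.67, adjusted p = 6.08e-05). Nr5a2, a nuclear receptor of pancreas and liver, was 1.96 CPM in T69a and 11.3 to 31.7 CPM in the other 6 tumor lines, against at most 1.39 CPM in metastasis lines, again with no overlap (-6.12, SE 0.83, adjusted p = 0.00191). Hhex and Ehf were lower in metastasis lines as well (-3.09, SE 0.52, adjusted p = 0.00468 and -1.17, SE 0.21, adjusted p = 0.00572). Metastasis lines reached 15.8 CPM of Hhex, above T69a alone, and 268 CPM of Ehf, above T69a and T69b. These 4 calls were kept in each of 23 alternative fits.

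Among the lists described here, epithelial genes were the steadiest apart from secretory machinery, with a median SD of log2 CPM of 0.28. They were not steadier than other genes, since the median over all genes with a mean of at least 5 CPM was 0.24. Of 24 keratin, junction and epithelial regulator genes, 21 were expressed in every line, and the basal keratin Krt17 and the claudin Cldn10 in none. Krt18 ran from 1213 CPM in T69a through a median of 1504 to 1826 CPM in T34, and Krt8 from 1215 through 1553 to 1844 CPM. Epcam, an adhesion molecule of epithelia, ran from 295 through 322 to 412 CPM. Cdh1, which encodes E-cadherin, stayed within 304 to 425 CPM, and the splicing regulators Esrp1 and Esrp2 within 87.7 to 106 and 48.0 to 58.6 CPM. Grhl2, a factor that keeps epithelial junction genes active, lay between 53.7 and 64.4 CPM. The most uneven was Cldn18, a claudin of the stomach lining, at 559 CPM in T69a, 84.0 CPM in T69b and 0.462 to 1.25 CPM in the other 5. T69a was also apart at Ovol1, an epithelial transcription factor, with 21.6 CPM against 3.22 to 6.17 CPM, and at the adhesion molecule Ceacam1, with 3.35 CPM against 14.6 to 23.3 CPM. Of 22 members tested, 1 was lower and 3 were higher in metastasis lines, with a median log2 fold change of 0.17, and this share is near the background of 16.5%. The count lower was 0 to 2 and the count higher 1 to 5 when single lines were left out, so it rests on which mice enter.

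Of 22 genes of duct ion and water transport, 21 were expressed in every tumor line and the water channel Aqp8 in none. Per length Aqp5, another water channel, led at 772 coding TPM, and ran from 111 CPM in T34 through 327 to 744 CPM in T69a. Cftr, the chloride and bicarbonate channel mutated in cystic fibrosis, was low in 5 lines at 2.04 to 6.45 CPM, with 15.4 CPM in T69b and 67.7 CPM in T69a. Bicc1, an RNA-binding protein required for normal ducts, went the other way, at 21.8 CPM in T69a, 151 CPM in T69b and 267 to 410 CPM in the other 5 lines. Car2, the cytosolic carbonic anhydrase of duct cells, had 53.1 CPM in T69a and 99.6 to 216 CPM in the other 6.

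Of 21 transport genes tested, 7 were lower in metastasis lines and 1 was higher, with a median log2 fold change of -0.25. Between 6 and 9 were lower when single lines were left out. Bicc1 reached at most 59.1 CPM in metastasis lines, below all tumor lines but T69a (-2.91, SE 0.46, adjusted p = 0.00385). Pkhd1, which encodes a cilium protein of ducts, ran from 24.9 through 36.2 to 64.8 CPM in tumor lines and from 10.2 to 35.1 CPM in metastasis lines, overlapping ranges (-1.09, SE 0.20, adjusted p = 0.00678). Car2 fell as well (-1.77, SE 0.34, adjusted p = 0.00748). Cftr was the member that was higher (2.96, SE 0.67, adjusted p = 0.0147), and it did not pass in 1 of 23 alternatives.

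**Figure D1:**
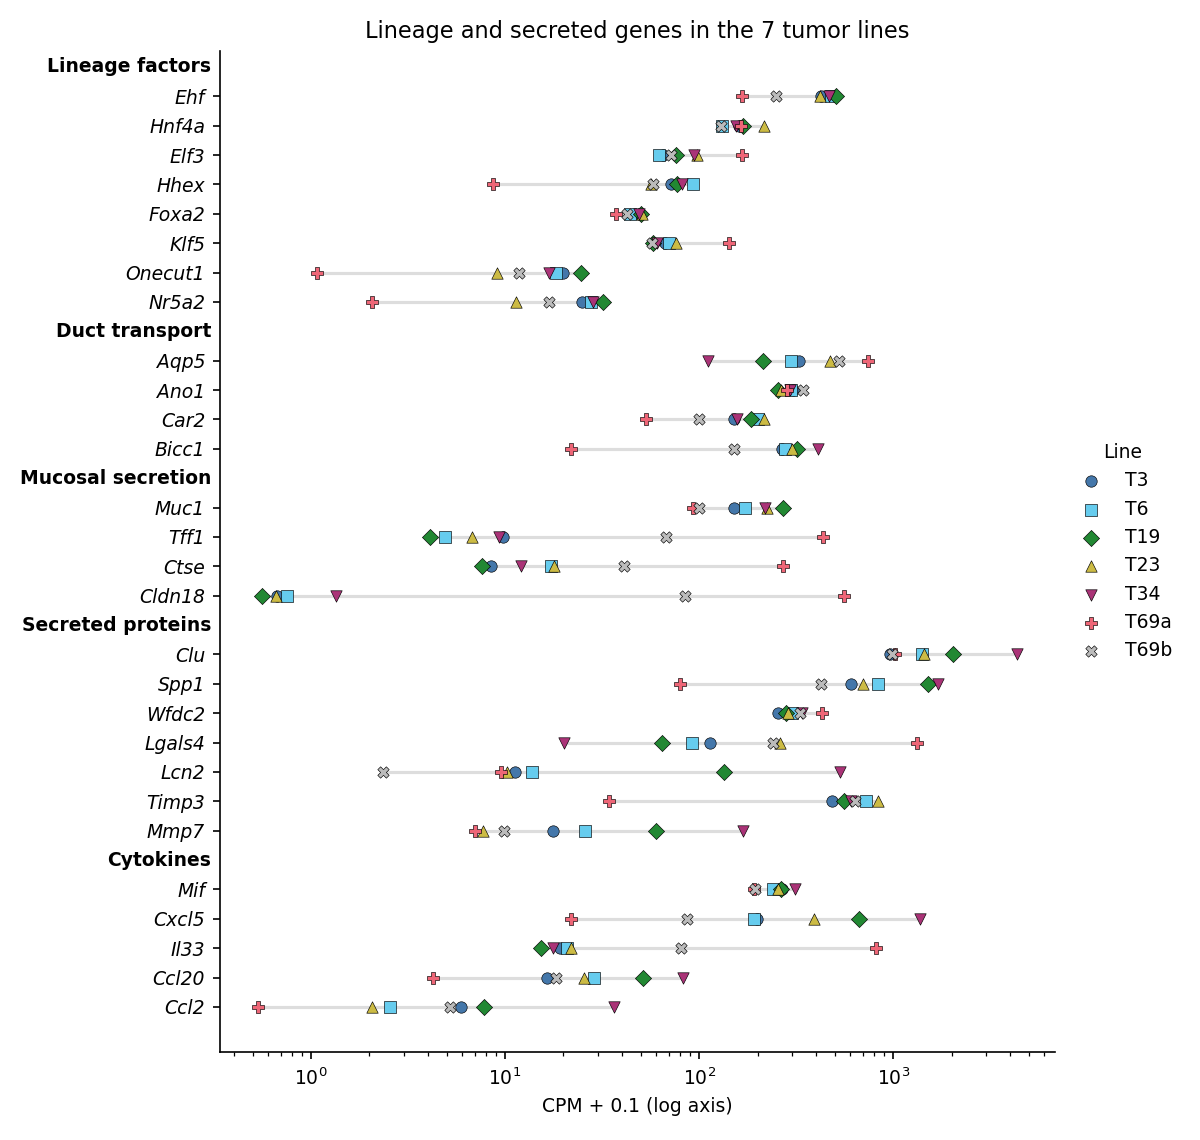
Each level on the vertical axis is a gene and each symbol a tumor line, placed by CPM plus 0.1 on a log axis, and grey bars join the lowest and highest of the 7 lines. T69a stands at the low end for Hhex, Onecut1, Nr5a2, Bicc1 and Timp3 and at the high end for Cldn18, Tff1, Ctse, Lgals4 and Il33, while Lcn2, Mmp7, Ccl2 and Clu are highest in T34.

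Mucins and gastric products were sparse. Of 24 matched genes, 8 were expressed in every tumor line and 7 in none, among them the mucins Muc4, Muc5b and Muc6 and the lysozyme gene Lyz1. Per length the trefoil factor Tff1 had 312 coding TPM and Muc1, a membrane mucin of duct cells, 198. Tff1, a peptide of the stomach surface, was 4.02 to 9.71 CPM in 5 lines, 67.7 CPM in T69b and 433 CPM in T69a, so its mean rests on the lines of mouse 6. Ctse, a gastric protease, was 7.53 to 17.8 CPM in those 5 lines, 40.8 CPM in T69b and 272 CPM in T69a. Muc1 ran the other way, with 92.8 CPM in T69a and a highest value of 270 CPM in T19. The 24 genes summed to between 217 and 1101 CPM per line. Of 18 tested, 1 was lower and 2 were higher in metastasis lines, and these counts were 0 to 1 and 1 to 4 when single lines were left out. The median log2 fold change was 1.01, and the values of T69a and T69b enter it.

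A few secreted defense and duct proteins were abundant, and the list was uneven. Of 31 genes, 15 were expressed in every line, which is near the 48.0% of all protein-coding genes. In none of the lines were 10 expressed, among them Wfdc18, Saa3 and the regenerating proteins Reg1 and Reg3a. Per length the leading members were Clu (2425 coding TPM), the duct phosphoprotein Spp1 (1519), the protease inhibitor Wfdc2 (1196), the galectins Lgals4 (563) and Lgals3 (338), and Lcn2 (308), which binds bacterial siderophores. Wfdc2 was even, from 256 through 301 to 427 CPM. Spp1 was 79.8 CPM in T69a and 426 to 1707 CPM in the other lines. Lcn2 was 2.24, 9.45, 10.1, 11.1, 13.7, 133 and 531 CPM in T69b, T69a, T23, T3, T6, T19 and T34. T34 and T19 were thus the lines with high Lcn2, and complement C3 had the same top pair, at 179 and 37.5 CPM against 3.83 to 8.65 CPM elsewhere. Timp3, an inhibitor of metalloproteinases, was 34.1 CPM in T69a and 486 to 839 CPM in the other 6 lines.

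Of 20 members tested, 9 were lower in metastasis lines and 2 were higher, with a median log2 fold change of -0.64. The count lower was 5 without T34 and 5 without M15, and the count higher was 0 without T19, T34 or M6, and 1 without T3, T6, T23, T69b, M1, M10, M16, M29 or M3P. Ambp, whose product is cut into a lipocalin and the protease inhibitor bikunin, was 8.55 CPM in T69a, 22.0 CPM in T69b and 78.4 to 255 CPM in the other 5. No metastasis line was above 2.45 CPM, so the groups did not overlap (-9.25, SE 0.66, adjusted p = 3.43e-05). Lcn2 reached at most 6.67 CPM in metastasis lines, above T69b and below the other 6 tumor lines (-5.29, SE 0.60, adjusted p = 0.000689). Timp3 reached 34.1 CPM there, about the level of T69a, and was below the other 6 tumor lines (-5.19, SE 0.73, adjusted p = 0.0023). Sftpd, a collectin that binds microbial sugars, ran from 9.86 CPM in T69a through 50.1 to 222 CPM in T34 and was lower in metastasis lines (-5.87, SE 0.90, adjusted p = 0.00331). Clu, from 963 through 1400 to 4367 CPM in tumor lines and from 252 through 423 to 798 CPM in metastasis lines, fell with no overlap (-1.90, SE 0.32, adjusted p = 0.00487). These 5 calls were kept in each of 23 alternative fits.

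Of 25 chemokines, cytokines and growth factor ligands, 14 were expressed in every line and 3, Cxcl14, Il18 and Tslp, in none. Per length Mif, a cytokine with broad expression, led at 1471 coding TPM, followed by the neutrophil chemokine Cxcl5 (666), the alarmin Il33 (132), Ccl20 (110), which attracts cells with the receptor Ccr6, Cxcl16 (93.5) and the EGF receptor ligand Areg (85.5). Cxcl5 was 21.7 CPM in T69a, 86.3 CPM in T69b, 193, 200, 392 and 664 CPM in T6, T3, T23 and T19, and 1378 CPM in T34. Il33 was 15.3 to 21.7 CPM in 5 lines, 80.5 CPM in T69b and 820 CPM in T69a. The monocyte chemokine Ccl2 was 36.4 CPM in T34, 1.96 to 7.66 CPM in 5 lines and 0.431 CPM in T69a. In T34 the chemokines Cxcl5, Ccl20, Cxcl16, Cxcl1, Cxcl2, Cxcl3 and Ccl2 each had their highest level.

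The genes Cxcl1, Cxcl2 and Cxcl3 encode neighbouring, related ligands of the receptor Cxcr2. Cxcl1 was 1.41, 7.98, 13.2, 17.1, 22.7, 27.6 and 68.4 CPM in T69a, T69b, T23, T3, T19, T6 and T34. Cxcl2 was 0.529, 2.79, 3.20, 4.72, 5.54, 10.4 and 29.5 CPM in T69a, T23, T69b, T3, T6, T19 and T34. Cxcl3 was 0.686, 7.85, 8.24, 8.38, 8.97, 18.3 and 26.8 CPM in T69a, T6, T23, T3, T69b, T19 and T34. All 3 were lowest in T69a and highest in T34. The 100 bases before the start of each gene are shown because they hold the same run of 11 letters, in capitals, which matches a form of the site bound by NF-kappaB factors (GGGA, any 2 bases, TTCC).
Cxcl1: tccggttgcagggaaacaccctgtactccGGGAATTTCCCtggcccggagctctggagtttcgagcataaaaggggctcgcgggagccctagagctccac
Cxcl2: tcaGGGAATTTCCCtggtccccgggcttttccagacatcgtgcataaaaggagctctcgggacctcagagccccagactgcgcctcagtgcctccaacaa
Cxcl3: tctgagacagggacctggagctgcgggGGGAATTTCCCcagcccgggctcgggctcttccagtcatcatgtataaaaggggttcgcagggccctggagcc
The sequences are from RefSeq's promoter table for GRCm38.p6, plus strand, at chr5:90891145-90891244 for Cxcl1, chr5:90903799-90903898 for Cxcl2 and chr5:90786001-90786100 for Cxcl3. The capitals begin 71, 97 and 73 bases before the annotated starts, and the 11 letters match the motif on both strands, in overlapping places. The motif was chosen after the values of these genes had been seen. It was searched on both strands of the 250 bases before each start, and 397 of 32851 promoters, 1.21%, held it. Of 18 secreted and chemokine genes looked for, 12 had an entry and 4 had a match, the fourth being Cxcl10, which reached 1 CPM in T34 only, at 1.31 CPM. A match of letters is a description and says nothing on whether a factor was bound in these cells.

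Of 22 cytokine genes tested, 10 were lower in metastasis lines by edgeR and 0 were higher, with a median log2 fold change of -0.43. At an unadjusted p under 0.05, 1 was higher, and by DESeq2 1. Without T34 the count lower was 6, and without T69a or without M30 the count higher was 1. Ccl2 was at most 0.109 CPM in metastasis lines, below every tumor line (-7.36, SE 0.65, adjusted p = 0.000137). Tgfa, a ligand of the EGF receptor, ran from 84.6 through 126 to 141 CPM in tumor lines and from 38.0 through 61.3 to 76.2 CPM in metastasis lines, with no overlap (-0.99, SE 0.14, adjusted p = 0.00284). Ccl20 was 4.16 CPM in T69a and 16.3 to 82.5 CPM in the other 6, and was lower in metastasis lines (-2.67, SE 0.49, adjusted p = 0.00651). Cxcl1 and Cxcl2 passed the threshold (adjusted p = 0.0266 and 0.0233), and Cxcl3 did not (adjusted p = 0.0759).

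The machinery that moves proteins into and through the secretory pathway was the most even list. All 36 genes were expressed in every line, and the median SD of log2 CPM was 0.18 over 35 of them with a mean of at least 5 CPM, against 0.24 over all genes at that level. Per length the chaperone Calr led at 814 coding TPM, followed by Hspa5 (738), the disulfide isomerase P4hb (700), Canx (497), Hsp90b1 (447) and the translocon-associated Ssr2 (337). Hspa5, the main chaperone of the endoplasmic reticulum, ran from 630 through 652 to 734 CPM, with T19 the highest. Xbp1, the transcription factor that expands this pathway, was the uneven member, at 74.5 CPM in T69a, 82.0 CPM in T69b and 135 to 255 CPM in the other 5 lines. It was lower in metastasis lines, which had 36.3 to 99.5 CPM (-1.38, SE 0.24, adjusted p = 0.00501). In all 7 of 36 members were lower in metastasis lines by edgeR and 0 were higher (2 at an unadjusted p under 0.05, 1 by DESeq2), with a median log2 fold change of -0.14. The count lower was 1 without T19, T34 or M6, 2 without T3, T6, M1 or M3P, 3 without M10 and 4 without M15, and the count higher was 2 without T69a.

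Of 26 matrix and extracellular protease genes, 21 were expressed in every line and 2, Tnc and Klk1, in none. The leading members per length were the lysosomal protease Ctsd (529 coding TPM), the membrane protein Prom1 (371), the urokinase receptor Plaur (241), Ctsl (231), Ctsb (204) and the serine protease Tmprss2 (146). Ctsb was 388 CPM in T69a and 161 to 201 CPM in the other 6. Mmp7, a matrix protease that also cleaves defensins, was 6.88 CPM in T69a, 7.58 CPM in T23, 9.72 CPM in T69b, 17.6, 25.8 and 59.7 CPM in T3, T6 and T19, and 168 CPM in T34. No metastasis line was above 2.71 CPM of Mmp7, and so none reached a tumor line (-6.38, SE 0.56, adjusted p = 0.000137). The laminin chain Lamc1 ran from 148 through 208 to 233 CPM in tumor lines and was lower in metastasis lines, at 103 to 181 CPM, with overlap (-0.65, SE 0.12, adjusted p = 0.00682). Of 24 tested, 4 were lower in metastasis lines and 3 were higher. The count lower was 2 without T34, T69b, M16, M28, M29 or M30, and the count higher was 0 without T3, T6, T19, M1, M6 or M3P and 1 without T23, T34 or M10.

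Proliferation genes were active in every line. All 30 cell cycle genes were expressed in all 7, with Ccnd1, the cyclin of early G1, at 606 coding TPM, the replication clamp Pcna at 428, Cdk1 at 403, Top2a at 311, Mcm7 at 216 and Rrm2 at 213. Mki67 ran from 389 CPM in T34 through 495 to 617 CPM in T3, and Rrm2, a subunit of ribonucleotide reductase, from 105 CPM in T34 through 180 to 276 CPM in T69b. Of the 30, edgeR called 0 lower (0 at an unadjusted p under 0.05, 0 by DESeq2) and 2 higher in metastasis lines (9 and 7), with a median log2 fold change of 0.16. The count higher was 0 without T3, T6, T19, T34, M1, M6 or M3P, 1 without M16, 5 without M30 and 6 without T69b.

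Of 32 targets of p53, 29 were expressed in every tumor line, and each of the 32 in at least 1. Per length the leading members were Rps27l (871 coding TPM), a ribosomal protein paralog, Ccng1 (438), an atypical cyclin, the death effector Bax (347), the desmosomal Perp (250), Ei24 (108) and Mdm2 (99.2), which marks p53 for destruction. Ccng1 was 118 CPM in T69a and 538, 616, 622, 777, 904 and 967 CPM in T34, T69b, T19, T3, T23 and T6. Eda2r, a receptor of the TNF family, was 0.667 CPM in T69a and 34.9 to 90.9 CPM in the other 6, and Dglucy, a D-glutamate cyclase, 1.20 CPM against 38.0 to 63.6 CPM. The cell cycle inhibitor Cdkn1a was 10.9 CPM in T69a and 20.7 to 37.6 CPM in the other 6. Tnfrsf10b, a death receptor, was instead highest in T69a, at 60.1 CPM against 29.9 to 40.9 CPM.

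In metastasis lines 23 of the 32 p53 targets were lower by edgeR and 0 were higher (0 at an unadjusted p under 0.05, 0 by DESeq2), with a median log2 fold change of -1.31. The count lower ran from 20 to 25 over all alternative settings, among them each line left out. Eda2r was at most 0.258 CPM in metastasis lines (-9.37, SE 0.83, adjusted p = 0.000137), Dglucy at most 0.646 CPM (-7.58, SE 0.69, adjusted p = 0.000151) and Trp53inp1, a stress-induced nuclear protein, at most 17.2 CPM against 25.2 to 199 CPM in tumor lines (-3.63, SE 0.45, adjusted p = 0.00109). In these 3 genes, named for their low adjusted p, no metastasis line reached the lowest tumor line, which was T69a. Ccng1 in metastasis lines reached 120 CPM, just past the 118 CPM of T69a (-2.68, SE 0.34, adjusted p = 0.00129).

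The tumor lines were alike at most genes and far apart at few. Over 10052 genes with a mean of at least 5 CPM, the median SD of log2 CPM (prior count 2) over the 7 lines was 0.24, and 86.1% of genes had an SD under 0.5. An SD over 1 was found in 432 genes, 4.30%. Among the same genes, 179 had an SD over 1 in the 6 lines without T69a, or 1.78%, and the median SD was then 0.19. At the limit of 5 CPM, Pim2 was just inside with a mean of 5.001 CPM and Fbxw17 just outside with 4.995 CPM. The steadiest genes of at least 50 CPM were the proteasome subunits Psmb1 and Psmd5 and the ribosomal proteins Rps3a1, Rpl4 and Rpl7, with SDs of 0.03 to 0.04. Psmb1 ran from 147 through 151 to 155 CPM.

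The 20 genes of largest spread fell into 2 main sets, the first on or off by line and the second graded. In the first were Xist, the RNA that silences an X chromosome, and the Y-linked genes Eif2s3y, Ddx3y, Uty and Kdm5d. Xist was at most 0.0504 CPM in T3, T6 and T34 and 145, 146, 156 and 334 CPM in T19, T69b, T23 and T69a. Eif2s3y was 42.0, 52.8 and 54.4 CPM in T3, T6 and T34 and at most 0.0191 CPM in the other 4 lines. The labels give no sex for the mice, and the lines of mouse 6 matched each other. The second set had T69a as the highest line, in 14 of the 20 genes including Xist, and in 12 of these T69b was next. It held Krt27, a hair follicle keratin, the gastric gene Gkn1, the intestinal phosphatase Alpi, Cldn18, Prap1, Foxf2, Clec2f, the sodium-proton exchanger Slc9a2, Fbp2, Pax9, Avil, Gpa33 and Acan. The minimum mean of 5 CPM was taken over all 7 lines, so a gene could pass it through T69a alone. Of the genes just listed, all but Cldn18 did so, with a mean under 5 CPM in the other 6 lines. Foxf2 and Avil were at most 2.30 and 4.59 CPM in any other line. The minimum therefore favours genes with T69a as the highest line. Outside both sets were Xlr3b, an X-linked gene with near-identical copies and so uncertain, at 34.1 and 18.3 CPM in T6 and T19 and at most 0.845 CPM elsewhere, and Sim1, a transcription factor, at 0 CPM in T19, 0.118 CPM in T69a and 5.88 to 14.5 CPM in the other 5.

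**Figure D2:**
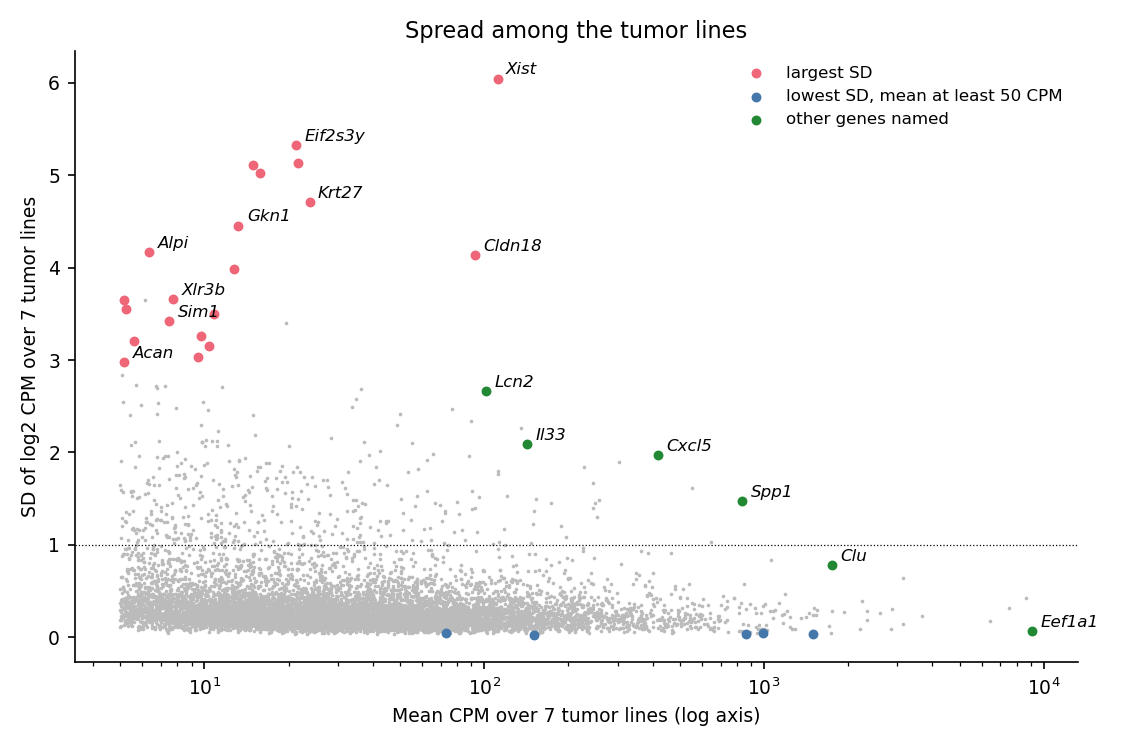
Each point is a gene, with its mean CPM over the 7 tumor lines on a log axis and the SD of its log2 CPM on the vertical axis, without genes linked to ribosomal RNA. The dotted line is at an SD of 1, red points are the 20 genes of largest SD, blue points the 5 of lowest SD and green points other genes named in the text. Most of the 10045 genes shown lie near the median SD of 0.24, and the named genes at the top, up to Xist with 6.05, are those described in the text.

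Without T69a, Xist and the Y-linked genes, the genes of largest spread again included several that are high in T69b, such as Gkn1 and Krt27, and then Lcn2 (SD 2.86 over 6 lines). Genes still entered this ranking by their mean over all 7 lines. Gkn1 and Krt27 had a mean under 5 CPM in the 6 lines, so they entered only through T69a. T34 was the line after T69a that most often stood alone. It lay over 1 log2 unit above all other lines at 44 genes and below all others at 11, and apart from T69a the remaining lines did so at 3 to 21 genes in both directions together. The iron carrier Trf had 1069 CPM in T34 against 32.4 to 213 CPM in the other 6, and C3, Ccl2, Lcn2 and the matrix protein Fn1 (29.3 CPM against 0.647 to 7.45 CPM) were of this kind. Slc4a4, a bicarbonate transporter of duct cells, had 64.8 CPM in T34 and 9.35 to 20.3 CPM in the others. These genes were picked after their values were seen.

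T69a stood apart from the other tumor lines across the transcriptome. It lay over 1 log2 unit above all 6 others at 305 genes, 3.03% of those measured, of which 68 had a mean under 5 CPM in the other 6 lines and so entered only through T69a, and below all 6 at 406 genes, 4.04%, or 7.07% together. In the other lines the same count was between 3 and 55 genes, and T69b had 13. By any amount T69a was above all others at 27.7% of genes and below all others at 37.3%. Across these 10052 genes, the Pearson correlation of log2 CPM between T69a and the 5 tumor lines of other mice was 0.797 to 0.855, against 0.918 to 0.973 for the 15 pairs of tumor lines without T69a. With T69b, from the same mouse, it was 0.891, and with the 3 metastasis lines of mouse 6, M28, M29 and M30, 0.942 to 0.970. With the 6 metastasis lines of other mice it was 0.861 to 0.899, also above the values with tumor lines of other mice. Genes are not independent replicates, all pairs share the scaling, and these values are a description.

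**Figure D3:**
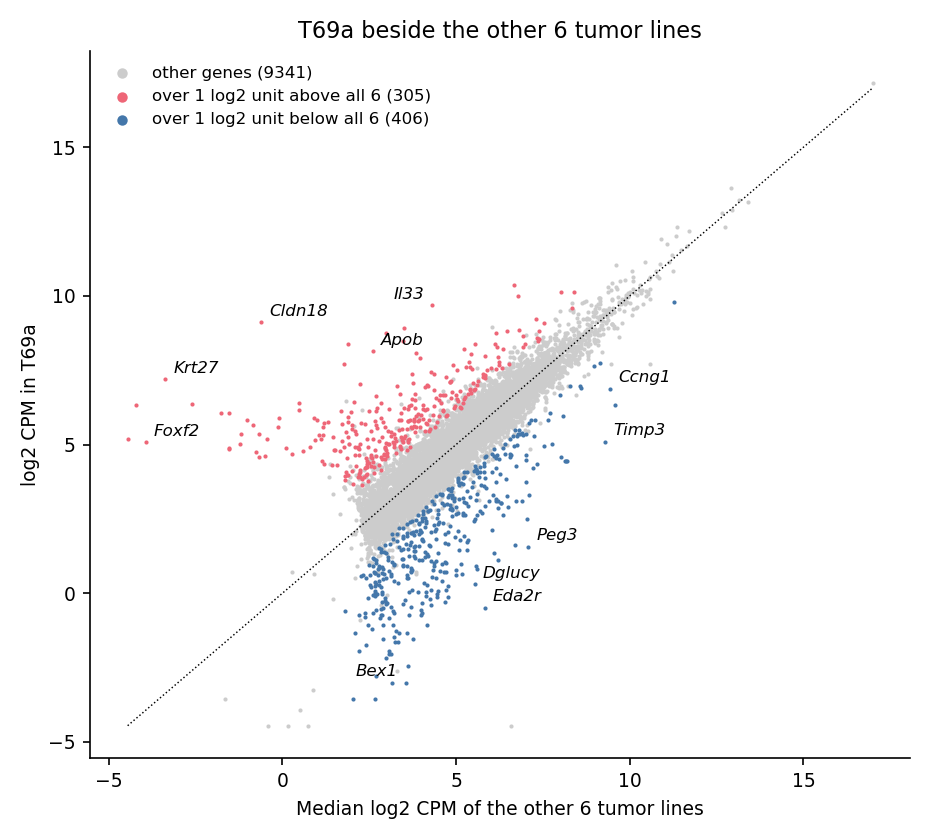
Each point is a gene with a mean of at least 5 CPM, with the median log2 CPM of the other 6 tumor lines on the horizontal axis and log2 CPM in T69a on the vertical axis. Coloured points are the 305 genes over 1 log2 unit above and the 406 over 1 log2 unit below the range of the other 6 lines, and the dotted line marks equal levels.

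The genes furthest up in T69a were nearly silent in the tumor lines of other mice. Genes entered this ranking by their mean over all 7 lines. Of the genes ranked in the next sentence, all but Cldn18 had a mean under 5 CPM in the other 6 lines and entered only through T69a. On the log2 CPM scale, Krt27 was 10.59 above the median of the other 6 lines, Gkn1 10.54, Cldn18 9.73, Alpi 9.66, Foxf2 9.02, Prap1 8.97, Avil 7.81, Slc9a2 7.62, Gpa33 6.86 and the mast cell protease gene Mcpt2 6.57. The other lines were near 0, so these sizes depend on the prior count, and on log2(TPM + 1) Krt27 was 6.96 above and Alpi 4.43. In CPM, Gkn1 was 80.5 in T69a, 11.3 in T69b and 0 to 0.814 in the other 5. Krt27 was 148 CPM in T69a, 18.0 CPM in T69b and 0 to 0.103 CPM in the other 5. Avil, a villin-like actin regulator that marks tuft cells, was 66.2 CPM in T69a, 4.59 CPM in T69b and 0.135 to 1.03 CPM elsewhere, while of the other tuft genes Trpm5 and Pou2f3 had 0.294 and 0.882 CPM in T69a and Dclk1 was highest in T34, at 3.77 CPM, with 1.00 CPM in T69a.

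The genes furthest down were Bex1 (-6.57), Eda2r (-6.31), Pdzrn3 (-6.21), Fam198b (-6.06), Pdpn (-5.58), the imprinted gene Peg3 (-5.51), Klf15 (-5.49), Tceal8 (-5.31), Dglucy (-5.22) and Zfp462 (-5.22). Peg3 was 2.92 CPM in T69a, 45.2 CPM in T6, the lowest of the others, and 276 CPM in T19. Klf15, a factor of glucocorticoid and amino acid metabolism, was 0.098 CPM in T69a and 4.62 to 8.41 CPM in the other 6. The lowest value of any of the 10 in another line was 0.906 CPM, for Pdzrn3 in T6. On log2(TPM + 1) the difference was -1.54 for Pdzrn3 and -1.85 for Zfp462.

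By list, and by any amount, T69a lay below all 6 others at 22 of 30 p53 targets and above all at 4, with a median difference of -1.14, against 37.3% and 27.7% of all genes and a median of -0.09. Among 19 cytokines and ligands it was below at 12 and above at 2 (median -0.65). Of 8 mucin and gastric genes at that level, Gkn1 and Anxa10 passed the minimum only through T69a, so no count is given for that list. Among 22 matrix and protease genes it was above at 9 and below at 6 (0.44). It was above at 6 and below at 8 of 19 transcription factors (0.04), at 7 and 4 of 21 epithelial genes (0.06), at 4 and 7 of 19 transport genes (-0.05) and at 6 and 5 of 15 secreted proteins (-0.10). Secretory machinery had 9 above and 13 below of 35 (-0.04), and the cell cycle list 0 above and 9 below of 30 (-0.25, or -0.09 without T3, T19 or T69b). Genes entered these counts by their mean over all 7 lines. The medians of the transcription factor, epithelial, transport, secreted and machinery lists are near 0 and changed sign under at least 1 other scaling, scale or minimum, with ranges of -0.41 to 0.12, -0.0021 to 0.13, -0.30 to 0.02, -0.18 to 0.08 and -0.12 to 0.03, and no direction is read from them. With a minimum mean of 20 CPM in place of 5, the median was -0.05 for the cytokines, -0.41 for the transcription factors and -0.30 for transport genes, and with 1 CPM it was -1.24 for the cytokines.

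T69b, the other line of mouse 6, had intermediate values at the genes that set T69a apart. In 40 genes T69a had at least 10 CPM and the 5 tumor lines of other mice were under 1 CPM each. T69b was above all 5 of those lines at 39 of the 40. Those 5 lines were low there by selection, which makes it easier to lie above them. T69b was above them at 23.9% of the 10052 genes with a mean of at least 5 CPM, a set not matched to the 40. Its level was a median of 10.8% of that in T69a, with a range of 2.76% to 25.2%. In the 5 lines of other mice, low by the selection, the medians were 0.526% to 1.46% of T69a. In M28, M29 and M30, which had no part in the selection, they were 39.8%, 94.3% and 63.7%. The 40 genes held Muc5ac, a gastric mucin, at 18.8 CPM in T69a and 2.37 CPM in T69b, Sox21, a transcription factor of stomach and other foregut epithelia, at 32.7 and 5.70 CPM, and Trim29, of squamous epithelia, at 20.1 and 0.957 CPM.

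At genes chosen as low in T69a, T69b kept part of the level of the lines of other mice, though it was often below them. In 46 genes T69a was under 1 CPM and the 5 lines of other mice were at least 5 CPM each. The distance of T69a from those 5 lines follows from this choice, in which T69b had no part. T69b had a median of 66.2% of the median of those 5, with a range of 8.39% to 149%. It was below all 5 at 23 of the 46, and at 25.5% of the 10052 genes with a mean of at least 5 CPM. That larger set is not matched to the 46. In M28, M29 and M30 the medians were 1.19%, 1.64% and 2.43%. Onecut1, Eda2r, Cxcl3, Zfp462 and the stem cell marker Olfm4 were among the 46.

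**Figure D4:**
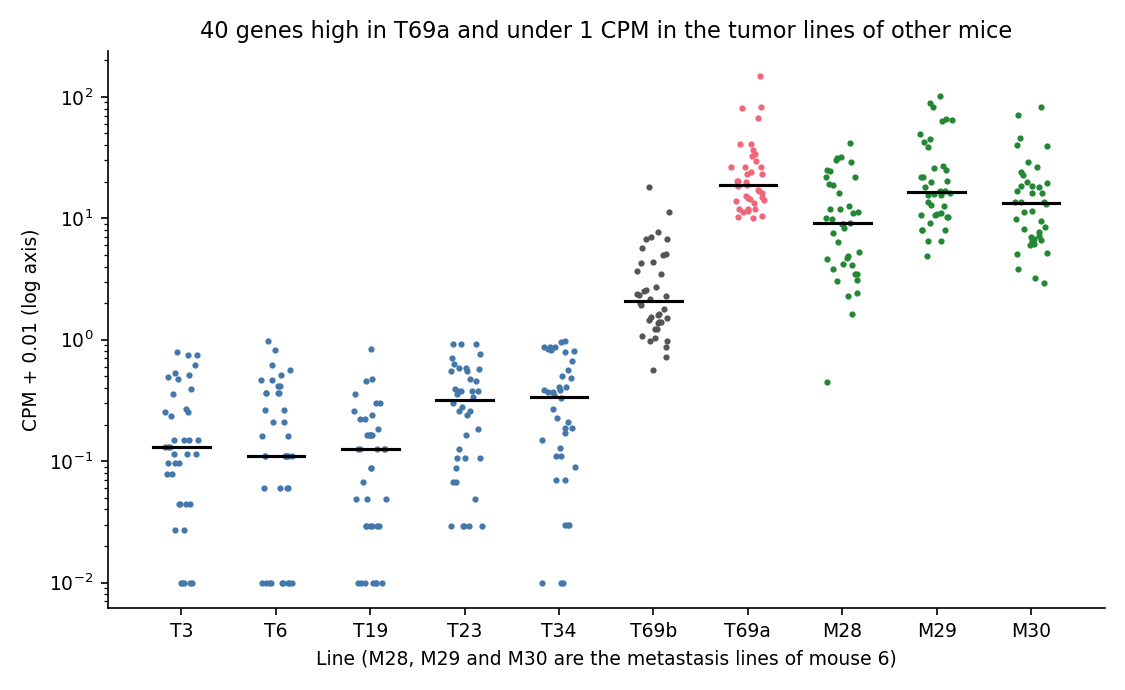
Each point is 1 of the 40 genes with at least 10 CPM in T69a and under 1 CPM in each tumor line of the other mice, plotted as CPM plus 0.01 on a log axis for each tumor line and for the metastasis lines M28, M29 and M30, with a black bar at the median. T69b lies between the lines of other mice and T69a, at a median of 10.8% of T69a.

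T69a also differed by chromosome. For each gene, log2 CPM minus the median of the 7 lines was taken. Each line was then centred on its own median over autosomal genes, and medians were formed per chromosome. In T69a the median over 367 genes of chromosome 19 was 0.67, with 90.7% of genes above 0, and those of chromosomes 12, 14 and 6 were 0.38, 0.33 and 0.29. Chromosome 13 was lowest at -0.22, with 27.6% of 413 genes above 0. In all, 5 of 19 autosomes were beyond 0.2 in size in T69a and 0 in the other lines. The largest in another line was 0.11, for chromosome 19 in T69b, and T6 had -0.09 there. The SD of the 19 autosome medians was 0.24 in T69a and 0.01 to 0.03 in the other 6. A line inside the range is itself the median of the 7 at many genes. Many chromosome medians of the other 6 lines were therefore exactly 0, and their small SD is in part built in. The cause was not tested.

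**Figure D5:**
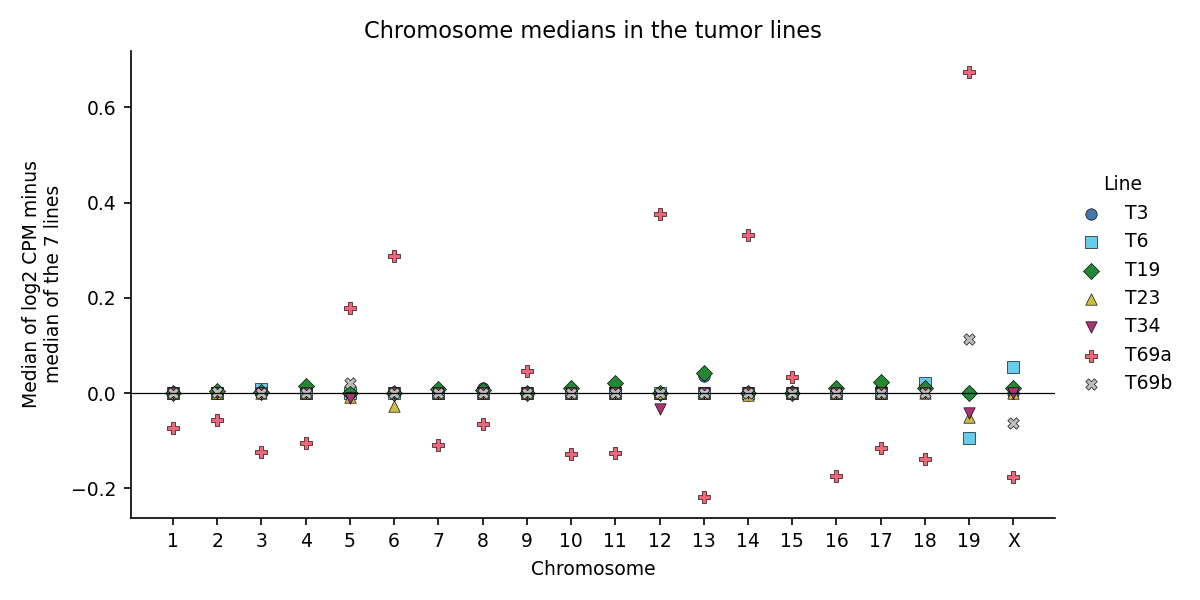
For each chromosome, each symbol is the median over its genes (mean of at least 5 CPM) of log2 CPM minus the median of the 7 tumor lines in 1 line. Each line is centred on its own median over autosomal genes. T69a is apart from 0 at most chromosomes, highest at chromosome 19 with 0.67 and lowest at chromosome 13 with -0.22, and the other 6 lines stay within 0.11 of 0 on the autosomes.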

How the data were processed

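Total RNA of 16 organoid lines was sequenced after ribosomal RNA depletion, per the labels' protocols. Per the submitters' processing notes, the tools were FastQC 0.11.8, STAR 2.6.0c and RSEM 1.3.1 with build GRCm38.p6. Per the file headers, the authors deposited expected counts and TPM per gene. The strand setting of the counting is not given in the sources used here. The isoform tables were not used.

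Gene identifiers were matched to GENCODE M21 for 55394 of 55487 genes. Expected counts were rounded, and CPM used TMM sizes over all 16 lines (edgeR 4.0.16, R 4.3.3, prior count 2 on the log2 scale). Deposited TPM of protein-coding genes was rescaled to one total per line, without genes that collect ribosomal RNA reads. Genes under 300 bases stayed in that total and were left out when genes were ranked by abundance. Predicted gene models were left out of the rankings by abundance, by spread and by the difference of T69a. RSEM shares reads among similar genes, so near-identical copies are uncertain.

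The stage comparison used edgeR's quasi-likelihood test, filterByExpr with stage as group, the mouse as a further term, and a threshold of 0.05 on the Benjamini-Hochberg adjusted p. The mouse labels pair the lines. The labels do not say that lines of 1 mouse came from separate tumors, so p-values partly measure spread between cultures. T69a is 1 line and was given no test.

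Members and lists were chosen with earlier results of these data known. Named genes were, per list, up to 6 of highest coding TPM and 4 of lowest adjusted p, and the extremes of spread and of T69a. Other genes were chosen after their values were seen, namely Sox9, Pdx1, Krt8, Cdh1, Esrp1, Esrp2, Grhl2, Cldn18, Ovol1, Ceacam1, Cftr, Ctse, C3, Ccl2, Cxcl1, Cxcl2, Cxcl3, Rrm2, Cdkn1a, Tnfrsf10b and those marked so. Alternatives were RLE size factors, library totals, tumor-only TMM, other pseudocounts and minimum levels, log2(TPM + 1), DESeq2 1.42.0, no mouse term and each line left out. Those added after seeing the data were the abundance ranking without ribosomal proteins, and T6 and T69a left out together or T69b left out of the lines set beside T69a. A few genes that the naming rule would take are not reported here.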

Additional observations from a re-analysis of the deposited data

Results flagged for a closer look

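Over the 7 lines, on log2 CPM for genes, the gap between the most extreme line and its neighbour was divided by the whole range, and ratios above 0.568 are listed here. Of 159 quantities 33 passed. Chance alone passes about 1 in 20 of quantities chosen without regard to their values. Lists and named genes here were chosen with earlier results known, so the 33 cannot be judged against that rate. T69a was the line at the end in 25 of the 33. The quantities share lines and are not independent.

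T6 was apart in its total count (25737000, ratio 0.729), in its share of ribosomal RNA reads (29.9%, ratio 0.982) and in its share on coding genes (50.5%, ratio 0.785). It was also lowest for the ribosomal genes Rpl41 (ratio 0.644) and Rack1 (0.573). T69a was apart in the number of genes beyond the range of the other lines (711, ratio 0.927), the SD of autosome medians (ratio 0.923) and the mean log2 CPM of the p53 targets (3.68 against 4.74 to 5.13, ratio 0.727).

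T69a was the lowest line for Hhex (ratio 0.79), Onecut1 (0.688), Nr5a2 (0.628), Bicc1 (0.66), Timp3 (0.829), Canx (0.63), Ptma (0.61) and Chd9 (0.704). Among p53 targets it was lowest for Rps27l (0.734), Ccng1 (0.721), Bax (0.764), Ei24 (0.6), Mdm2 (0.706), Eda2r (0.803) and Dglucy (0.869). It was the highest line for Klf5 (0.686), Il33 (0.583), Ctsb (0.749), Rplp1 (0.654), Rps29 (0.582), Rpl32 (0.781) and Tpt1 (0.686). Of the other lines, T34 was lowest for the trefoil factor Tff3 (0.582), T19 highest for Hspa5 (0.675) and T69b lowest for mt-Co1 (0.64).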

How the results depend on the processing

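No stage call and no difference of the single genes named for T69a changed direction, while 5 list medians of T69a near 0 did so at 7 values. Of the 20 most abundant genes, 8 were kept in a ranking by CPM, which favours long genes, and 7 with ribosomal proteins left out. The count of genes with an SD over 1 was 1012 at a mean of at least 1 CPM, 160 at 20 CPM, 277 on log2(TPM + 1) and 147 without T6 and T69a. It was 146 to 495 with each line left out, the 146 without T69a. Of the 20 genes of largest spread, 13 were kept on log2(CPM + 1), 5 at 20 CPM, 10 on log2(TPM + 1) and 7 without T6 and T69a, and 8 to 20 with each line left out, the 8 without T69a. Genes over 1 log2 unit above the others in T69a numbered 555 at 1 CPM and 133 at 20 CPM, and those below 670, 194 and, on log2(TPM + 1), 269. They were 306 to 361 and 410 to 481 with each line left out. For the stage comparison, the fit with no replicate block for mouse called 1274 genes lower and 945 higher, and DESeq2 called 1871 higher. Without the 2 libraries richest in ribosomal RNA reads, T6 and M15, 556 were lower and 238 higher, and without T6 and T69a 1580 were higher. With each line left out, 720 to 2132 were lower and 413 to 1778 higher. In these settings the cause was not tested. Leaving out the only tumor or metastasis line of a mouse also removes its partner from the stage estimate. Over 105 single genes, 2139 of 2405 values kept their side of the threshold, 230 lost the call and 36 gained it. The sign changed in 79 values of 13 of these genes, and 0 of those were called in either fit. Depth limits low genes, where the lines near 0 make log2 differences depend on the prior count.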
